A study of Mus musculus with 8 samples.

Results

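The ZIP zinc importers are the proteins of the Slc39a gene family, which carry zinc into the cytosol. The set described here was fixed by name and holds 10 genes of the 55414 in the count table: Slc39a1, Slc39a3, Slc39a4, Slc39a5, Slc39a6, Slc39a7, Slc39a8, Slc39a10, Slc39a11 and Slc39a14. C57BL/6J mice gave the small intestine from which Paneth cells were sorted by FACS, and the RNA of each mouse was made into 1 stranded mRNA library and sequenced in bulk. For 7 weeks, 4 mice (control) ate standard chow and 4 mice (zinc deficient) ate chow depleted of zinc, both ad libitum. The labels state neither the sex or age of these mice nor whether the chows were matched in everything but zinc. The comparison of diets asks how the transcripts of zinc entry stood in Paneth cells once dietary zinc was withheld.

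ZIP proteins move zinc from outside the cell, or from the lumen of an organelle, into the cytosol, whereas the ZnT exporters of the Slc30a family move it the other way. Paneth cells are known for the zinc they store in their secretory granules beside the antimicrobial peptides. In the intestine, Slc39a4 is the classical importer of the enterocyte brush border, where it takes up dietary zinc, and Slc39a5 lies on the basolateral side of the same cells.

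Total counts per mouse ranged from 8557690 to 12648005. Paneth cell products dominated every library, with 454543 to 593182 CPM (counts scaled to a library total of 1000000) for the sum of Lyz1, Mmp7, Itln1, Ang4, Defa24 and Defa30, whereas the 12 enterocyte markers summed to 182 to 441 CPM. Of these 6 Paneth cell genes, 0 were called between the diets and 1 (Ang4) had an unadjusted p under 0.05 (edgeR). With the TMM scaling used below, all 6 had a log2 fold change above 0 in the zinc deficient mice (median 0.45). Without it, the mean CPM of Itln1 and Defa30 was lower in the zinc deficient mice. The defining markers of stroma and vessels (at most 0.169 CPM), erythroid cells (at most 0.761 CPM) and pancreatic acinar cells (at most 0.501 CPM) were at or near 0. Immune markers reached at most 3.14 CPM. Goblet cell markers summed to 7087 to 12018 CPM, enteroendocrine markers to 13.3 to 47.8 CPM and tuft cell markers to 13.8 to 383 CPM. Of the mean goblet sums of 9069 (control) and 9120 CPM (zinc deficient), Spink4 alone gave 6279 and 5980 CPM. Tuft sums were 60.2 ± 15.4 CPM in the control and 123 ± 174 CPM in the zinc deficient mice (SD, n = 4 each). The diets differed in markers of stem and dividing cells, of which 1 of 6 was called (Top2a) and 5 of 6 had an unadjusted p under 0.05, all lower. Their sum was 1320 to 2127 CPM in the control mice and 489 to 1061 CPM in the zinc deficient mice, and its part in the differences given here was not tested. In bulk samples, fewer cells of a type and less RNA per cell cannot be told apart.

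The promoters of the ZIP genes are shown for 1 reason: the zinc sensor Mtf1 is known to bind metal response elements, whose core was searched here as TGCACNC or TGCGCNC on both strands. RefSeq start sites on GRCm38.p6 gave 11 windows for 7 of the 10 genes, each 300 bases long and reaching from 250 bases before the start to 50 after it. A match was found in 5 of the 11 windows (45.5%), against 25.7% of the 32851 windows of all genes. Each match is given on the strand of its gene with 10 bases on either side, and capitals mark the core or its reverse complement.
Slc39a5, chr10:128401337-128401363, minus strand: aggttagcagGTGTGCActtagggaat
Slc39a8, chr3:135825628-135825654, plus strand: tatctctaaaGGGTGCAgggcctgatc
Slc39a3, chr10:81037443-81037469, minus strand: atttggtagcTGCACTCatgtttagaa
Slc39a11, chr11:113650091-113650117, minus strand: aagggaaggaGAGCGCAgcgaacccac
Slc39a11 (other start), chr11:113565939-113565965, minus strand: ttcctggggtGTGTGCActgccctagg
A match is a run of letters and not a bound site. The windows of Slc39a1, Slc39a7 and Slc39a10 held none of these letters, and Slc39a4, Slc39a6 and Slc39a14 had no window in the table.

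All 10 genes were detected in every mouse, with 32 counts (Slc39a6, zinc deficient replicate 2) to 2090 counts (Slc39a11, control replicate 1). Levels were compared between genes as TPM, the transcript measure in which counts are divided by the summed exon length of the gene and then scaled to a total of 1000000. Slc39a11, the only mammalian member of its subfamily, had the highest level, with 16.3 ± 3.94 TPM (SD, n = 8). Its transcript exceeded that of 95.2% of all genes tested and was the most abundant of the 10 in 8 of 8 mice. It is a minus strand gene of chromosome 11 (113134467 to 113541227, GRCm39).

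Slc39a1, a broadly expressed importer of the plasma membrane, followed with 7.89 ± 1.67 TPM and was below Slc39a11 in 8 of 8 mice, by a mean factor of 2.07 ± 0.317 (SD). Slc39a8, which carries manganese as well as zinc, came next with 5.54 ± 1.85 TPM and was below Slc39a1 in 8 of 8 mice. Both of these steps were shared by all mice.

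Further down, neighbours in the order lay within each other's spread. Slc39a5 had 4.09 ± 1.97 TPM, Slc39a4 had 3.86 ± 1.69 TPM and Slc39a14, a carrier of zinc, iron and manganese, had 3.15 ± 1.43 TPM (SD, n = 8). Slc39a7, which releases zinc from the endoplasmic reticulum, had 2.89 ± 0.933 TPM, a level made uncertain by an overlapping gene (given below). Next came Slc39a3, a plasma membrane importer related to Slc39a1, with 2.40 ± 0.708 TPM, and Slc39a10 with 2.11 ± 0.779 TPM. From Slc39a8 down to Slc39a10, each gene exceeded the next one in 5 or 6 of the 8 mice only. With the canonical transcript length in place of the summed exon length, 5 genes changed rank, and Slc39a14 stood at rank 4.

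Slc39a6 was the lowest of the 10, with 0.419 ± 0.176 TPM (SD, n = 8) and 32 to 106 counts per mouse. Its protein is a close relative of that of Slc39a10, with which it is known to form a complex. The level of Slc39a10 was above that of Slc39a6 in 8 of 8 mice, by a mean factor of 5.28 ± 1.55 (SD).

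**Figure D1:**
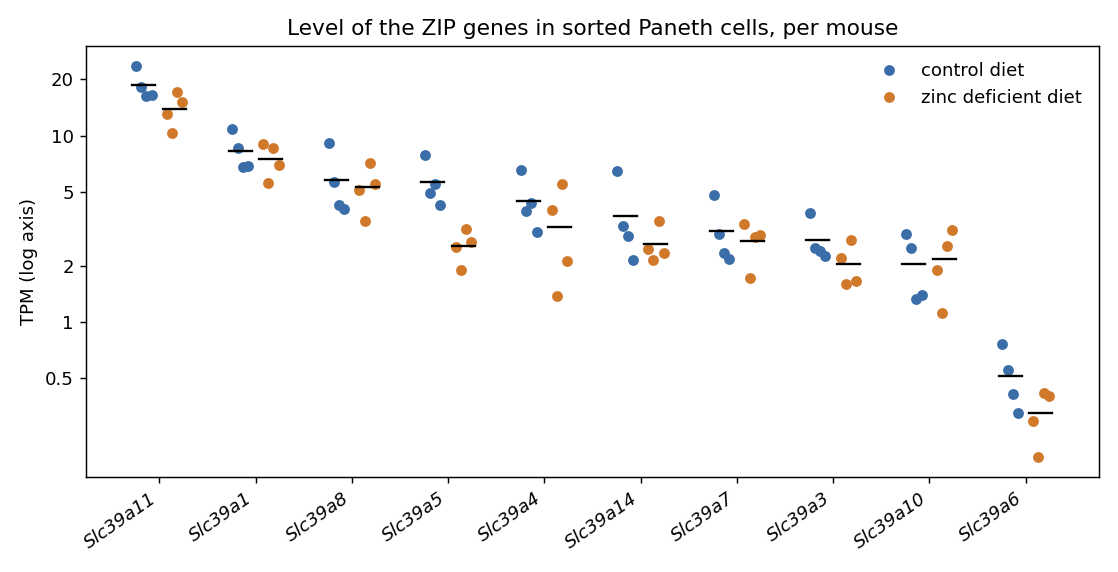
Level of each ZIP gene (TPM, log axis) in every mouse, ordered by the mean over the 8 mice. Points are mice, blue for the control diet and orange for the zinc deficient diet, and black bars are means of 4 mice. Slc39a11 stood above and Slc39a6 below the other 8 genes in every mouse.

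As TPM add up to a fixed total, the sum of the 10 genes also moves with the share taken by defensins and other granule products. It ranged from 42.9 to 77.0 TPM in the control mice and from 29.4 to 53.6 TPM in the zinc deficient mice. Shares of that sum do not depend on the scaling of a library. Slc39a11 took 33.8% ± 2.78 (SD, n = 8) of the sum, Slc39a1 took 16.6% ± 2.17 and Slc39a8 took 11.3% ± 1.51. ZIP transcripts in what follows means those of the 10 genes only. In any mouse the 3 most abundant of the 10 held between 56.8% and 65.8%.

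The share of Slc39a5 differed most between the diets. It was 10.2, 9.24, 11.8 and 9.88% in control replicates 1 to 4 and 5.72, 6.43, 5.85 and 6.28% in zinc deficient replicates 1 to 4. These ranges do not overlap, so Slc39a5 made up a smaller part of the ZIP transcripts in every zinc deficient mouse. Slc39a11 took 34.6% ± 3.06 in the control and 33.0% ± 2.64 in the zinc deficient mice (SD, n = 4 each), and Slc39a3 took 5.02% ± 0.243 and 4.88% ± 0.712.

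**Figure D2:**
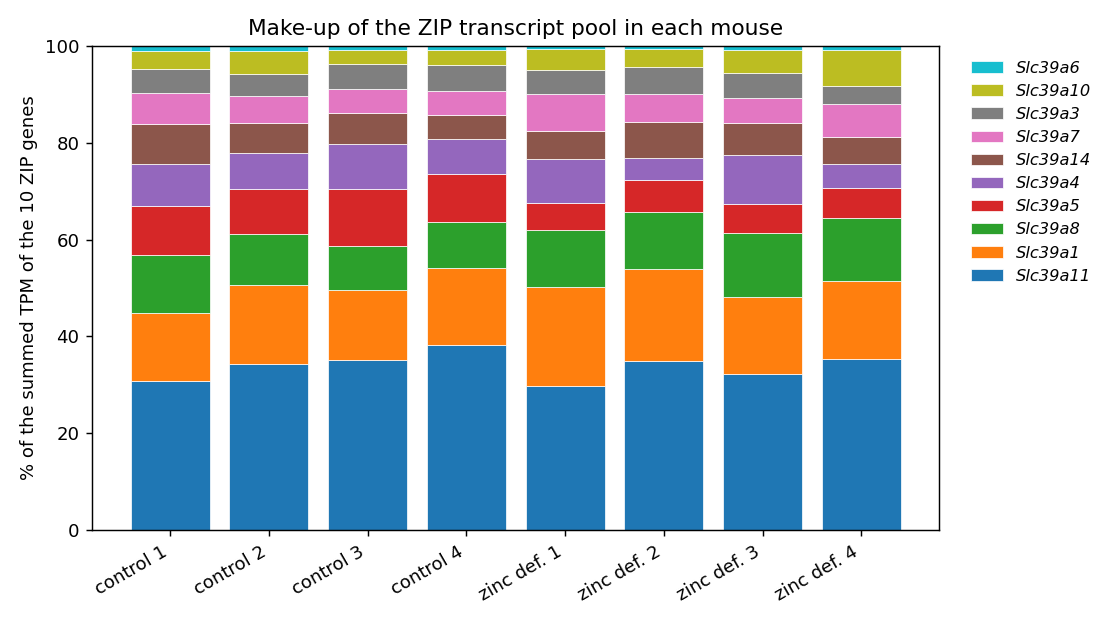
Share of each ZIP gene in the summed TPM of the 10 genes (percent), 1 stacked bar per mouse. Slc39a11 (bottom, 29.7 to 38.3%) was the largest part in all mice, and Slc39a5 held 9.24 to 11.8% in the control mice and 5.72 to 6.43% in the zinc deficient mice.

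To compare the diets, counts were scaled by the TMM method and tested with edgeR's quasi-likelihood test over all genes. Of 10911 genes tested, 44 were called at an adjusted p under 0.05 (0.403%). The 10 ZIP genes all passed the expression filter, and 0 of them were called, either higher (0.147% of all genes) or lower (0.257%). DESeq2 also called 0 of them. At an unadjusted p under 0.05 there were 4 ZIP genes, where 10.5% of all genes tested had such a p. Of these, 3 were higher in the zinc deficient mice (Slc39a1, Slc39a8 and Slc39a10, against 4.43% of all genes), Slc39a1 and Slc39a8 turning below 0 with libraries scaled by their totals alone, and 1 was lower (Slc39a5, against 6.04%). Under that scaling, of the 4 genes only Slc39a5 kept an unadjusted p under 0.05, where 13.9% of all genes had one. Values of the diets did not overlap for 3 ZIP genes, against 6.09% of all genes: 2 were higher on the TMM scale, though not by library totals alone (Slc39a1 and Slc39a8, against 2.3%), and 1 lower (Slc39a5, against 3.79%). The log2 fold change was above 0 for 7 of the 10 genes, 6 of which turned with libraries scaled by their totals alone, and for 49.3% of all genes. Its median was 0.025 over the 10 genes and -0.0052 over all genes tested.

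Slc39a5 had the smallest p of the family. Its TMM-scaled CPM were 11.7, 11.1, 16.6 and 12.7 in control replicates 1 to 4, and 7.55, 8.08, 7.66 and 8.98 in zinc deficient replicates 1 to 4. Every zinc deficient mouse lay below every control mouse. On the log2 scale the difference was -0.68 (standard error 0.19, 95% interval -1.08 to -0.29), which is 0.622 of the control level. Its edgeR p of 0.00195 became 0.141 after Benjamini-Hochberg adjustment over all genes. Across the alternatives the difference stayed below 0, between -1.03 and -0.55, with adjusted p from 0.0873 to 0.285.

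Slc39a5 was counted on 64 to 217 reads per mouse, so each value carries counting error besides the spread between mice. It is a minus strand gene of chromosome 10 (128231799 to 128237121, GRCm39). Ankrd52 overlaps it on the opposite strand but shares 0 exonic bases with it, and had a log2 fold change of 0.11 (standard error 0.16). Since Slc39a5 is also a gene of enterocytes, their markers are given beside it: the 11 tested summed to 267 to 456 TMM-scaled CPM in the control mice and 253 to 400 in the zinc deficient mice. Of these 11, 0 were called, 0 had an unadjusted p under 0.05 (edgeR) and 4 had a log2 fold change above 0. By mean CPM before TMM scaling, Anpep alone gave 259 of the 364 CPM of all 12 markers in the control mice. In the zinc deficient mice it gave 192 of 281 CPM, so the sums mostly follow Anpep. The part of the enterocyte markers in the difference of Slc39a5 was not tested.

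Slc39a4, whose loss causes the zinc deficiency disorder acrodermatitis enteropathica in humans, showed no such separation. The TMM-scaled CPM were 18.1, 16.6, 24.3 and 16.9 in control replicates 1 to 4 and 22.3, 10.9, 24.8 and 13.2 in zinc deficient replicates 1 to 4. Zinc deficient mice held the 2 lowest values and the highest one, so the diets overlapped on both sides. The log2 fold change was -0.081 (standard error 0.23, adjusted p = 0.941 by edgeR), with a 95% interval from -0.57 to 0.41. The sign turned when control replicate 3 (0.056), zinc deficient replicate 2 (0.090) or zinc deficient replicate 4 (0.044) was left out.

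Enterocyte markers are given beside Slc39a4 on the same TMM scale, with sums that mostly follow Anpep, as said above. The 11 markers tested summed to 267, 278, 456 and 297 CPM in control replicates 1 to 4 and to 305, 253, 400 and 256 CPM in zinc deficient replicates 1 to 4. Replicate 3 of either diet had the highest sum within its diet, and also the highest level of Slc39a4 (24.3 and 24.8). The zinc deficient mice were all in the same order for both measures, whereas the other control mice were not. The part of enterocyte RNA in the level of Slc39a4 was not tested.

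Slc39a10, an importer of the plasma membrane, had the largest difference upward. Its TMM-scaled CPM were 23.7, 30.7, 21.8 and 22.7 in the control and 30.9, 25.9, 33.7 and 56.5 in the zinc deficient mice (replicates 1 to 4). Of the zinc deficient mice, 3 exceeded all control mice, replicate 2 did not, and replicate 4 stood well above the rest. The log2 fold change of 0.57 (standard error 0.21, 95% interval 0.13 to 1.01) had an adjusted p of 0.303 by edgeR, and from 0.0481 to 0.787 over the alternatives. Only without a filter on low counts was the gene called. Without zinc deficient replicate 4 the difference was 0.29 (adjusted p = 0.787). With libraries scaled by their totals alone it was 0.20 (edgeR, unadjusted p = 0.506), and 0.57 relative to the median of all genes under that scaling. Taking values relative to that median is itself a scaling of all genes, so the latter value is not separate from the TMM value.

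Slc39a6, the partner of Slc39a10, had 4.87 to 6.31 TMM-scaled CPM in the control and 4.04 to 6.73 in the zinc deficient mice. Of the zinc deficient mice, 2 lay below and 1 above all control mice, so the diets overlapped on both sides. The log2 fold change was -0.18 (standard error 0.24, 95% interval -0.68 to 0.31). Slc39a6 shares 509 exonic bases with Elp2 on the opposite strand, and its counts are uncertain to that extent, as the sources used here do not state whether counting used strand. Elp2 had 1678 counts over all mice against 488 for Slc39a6, and a log2 fold change of -0.19 (standard error 0.17).

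Slc39a8 had 47.9, 45.0, 45.0 and 42.7 TMM-scaled CPM in control replicates 1 to 4 and 54.1, 52.2, 60.9 and 64.6 in zinc deficient replicates 1 to 4. All zinc deficient mice were above all control mice on this scale, with a log2 fold change of 0.36 (standard error 0.13, adjusted p = 0.308 by edgeR), but the difference was -0.0032 when libraries were scaled by their totals alone. That scaling moved the median of all genes to -0.37, and relative to this median Slc39a8 was at 0.37, a value not separate from that on the TMM scale. Its share of the ZIP transcripts was 9.08 to 11.9% in the control and 11.7 to 13.3% in the zinc deficient mice, a small overlap.

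Slc39a14, which shares zinc and manganese as cargo with Slc39a8, had nearly equal means. It was at 43.4 ± 7.64 TMM-scaled CPM in the control and 44.2 ± 4.25 in the zinc deficient mice (SD, n = 4 each). The 95% interval of its log2 fold change of 0.024 ran from -0.29 to 0.34, and the sign of a difference this small turned under 4 of 16 alternatives.

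For Slc39a1 the values were 30.8, 37.4, 39.5 and 39.2 TMM-scaled CPM in the control and 51.9, 45.7, 40.2 and 44.2 in the zinc deficient mice (replicates 1 to 4). The zinc deficient mice were all above the control mice, although replicate 3 only barely, and with libraries scaled by their totals alone the log2 fold change of 0.31 (standard error 0.14, adjusted p = 0.445 by edgeR) became -0.025. Relative to the median of all genes under that scaling it was 0.34, again not separate from the value on the TMM scale. A transcribed processed pseudogene of Slc39a1 is annotated on chromosome 2 and had 0 counts in all mice. Slc39a3, of the same subfamily, had 11.8 ± 1.46 TMM-scaled CPM in the control and 11.9 ± 1.18 in the zinc deficient mice, with a 95% interval from -0.34 to 0.40 on the log2 scale.

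Of the genes for zinc release from organelles, Slc39a7 had 7.73 to 8.47 TMM-scaled CPM in the control mice, a narrow range, and 8.22 to 12.0 in the zinc deficient mice. In 3 of 4 zinc deficient mice it was above all control mice, with a log2 fold change of 0.31 (standard error 0.19, adjusted p = 0.625 by edgeR) that turned to -0.063 with libraries scaled by their totals alone. Slc39a7 shares 2084 of its 2661 exonic bases with Gm20427 on the same strand, and Gm20427 had 0 counts. How counting treated shared bases is not stated in the sources used here, so the counts and TPM of Slc39a7 are uncertain. Slc39a11, the most abundant ZIP gene, was at 140.0 ± 21.8 TMM-scaled CPM in the control and 140.1 ± 15.2 in the zinc deficient mice. Its 95% interval of -0.32 to 0.33 on the log2 scale was centred near 0. Slc39a11 shares 340 exonic bases with Cog1 on the opposite strand.

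**Figure D3:**
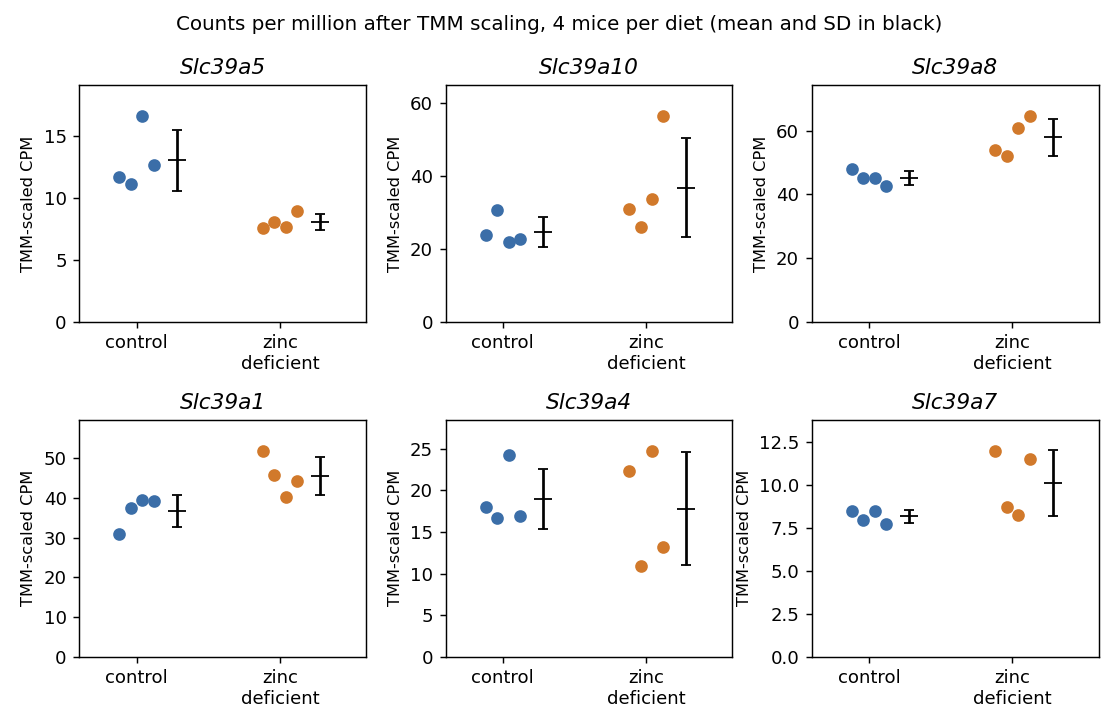
TMM-scaled CPM of 6 ZIP genes in each mouse, with the y axis from 0. Points are mice (4 per diet), and the black bar beside them is the mean with its SD. Slc39a5 was lower in every zinc deficient mouse, Slc39a8 and Slc39a1 were higher on this scale (not with libraries scaled by their totals alone), and zinc deficient replicate 4 stood above the other mice for Slc39a10, at 56.5.

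**Figure D4:**
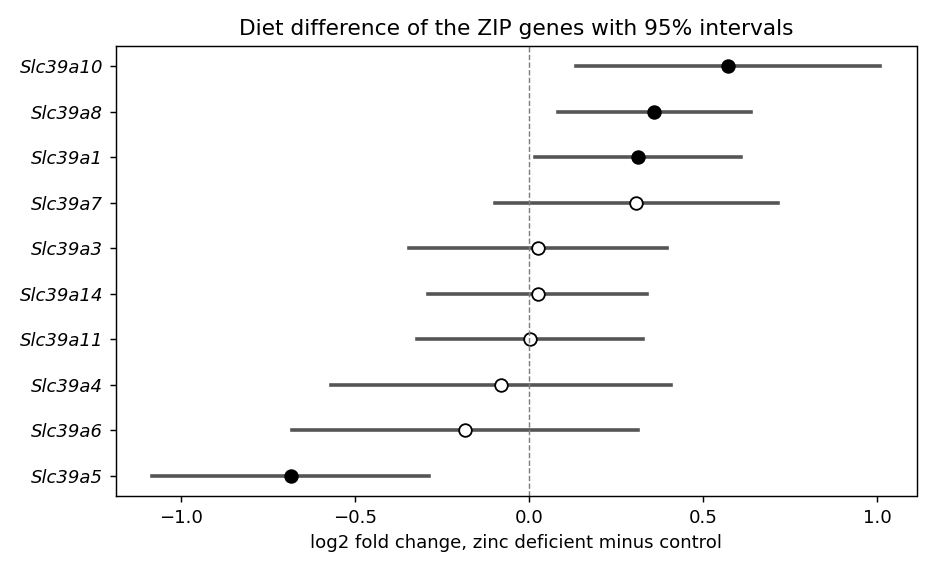
Log2 fold change of each ZIP gene, zinc deficient minus control, with its 95% interval from edgeR (4 mice per diet). Filled points have an unadjusted p under 0.05, and none of the 10 genes had an adjusted p under 0.05.

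Outside the 10 genes, the mouse has 4 more ZIP genes. Slc39a9, a zinc carrier of the Golgi region, was abundant at 5.78 ± 1.61 TPM, a mean above that of Slc39a8 (5.54 TPM). Its log2 fold change of 0.046 (standard error 0.15) turned to -0.27 with libraries scaled by their totals alone. Slc39a13, also of the Golgi region, was at 1.38 ± 0.793 TPM, with a log2 fold change of -0.37 (standard error 0.21, adjusted p = 0.584 by edgeR). Slc39a2 had 8 counts over all mice, and Slc39a12 had 0, so neither was tested.

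Other genes of zinc handling gave no call either. Of the 10 ZnT exporters, 7 were tested and 0 were called or had an unadjusted p under 0.05 (edgeR). Slc30a2, whose protein loads zinc into secretory granules, was the most abundant of them at 21.4 ± 7.19 TPM, a mean above that of any ZIP gene, with a log2 fold change of 0.19 (standard error 0.15) that turned to -0.20 with libraries scaled by their totals alone. Slc30a6, an exporter of the Golgi, was at 0.24 (standard error 0.19), and at -0.071 under that scaling.

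Of Mt1, Mt2, Mt3, Mt4 and Mtf1, 4 were tested and 0 were called (edgeR). Mtf1, the sensor that switches on metallothionein genes when zinc is plentiful, was higher with an unadjusted p under 0.05 (edgeR), against 4.43% of all genes. Its TMM-scaled CPM were 6.46 to 8.61 in the control and 8.71 to 11.7 in the zinc deficient mice, without overlap (higher, against 2.3% of all genes). The log2 fold change was 0.44 (standard error 0.20, adjusted p = 0.441 by edgeR). With libraries scaled by their totals alone this was 0.088. On the TMM scale, Mt1 had a log2 fold change of -0.25 (standard error 0.24), Mt2 of 0.46 (0.37) and Mt3 of 0.27 (0.49).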

How the data were processed

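RNA-seq of sorted Paneth cells from 8 mice was analysed, 4 per diet, with 1 library per mouse and 0 columns of other samples. Whole-number counts for each Ensembl identifier were deposited by the authors, with no normalization. The submitters' processing notes name FastQC 0.12.0, STAR 2.7.0a, DESeq2 and mm39, and the counting program is not given in the sources used here. Gene names, positions and exon lengths came from GENCODE M39 on GRCm39, where 54749 of 55414 identifiers were found. CPM and TPM were computed from the counts, per mouse. Diets were compared with edgeR 4.0.16 (R 4.3.3): its expression filter, TMM scaling, and quasi-likelihood test with the robust option, with p adjusted by Benjamini-Hochberg over all genes and called under 0.05. The control mice had TMM factors of 0.928 to 1.57, the zinc deficient mice of 0.719 to 1.10. Size factors and the test of DESeq2 1.42.0 served as alternatives. On simulated counts for this comparison (10911 genes, 200 changed), 93.5% of 4-fold and 67.8% of 2-fold changes were called, so smaller differences may be missed.

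Intervals are 95% and come from the edgeR fit. Library pairs within a diet differed beyond sampling noise (chi-square divided by degrees of freedom was 5.70 to 59.3), so none was counted as a duplicate. Promoter windows came from RefSeq on GRCm38.p6, whereas gene positions are on GRCm39. Members and lists were chosen with earlier results of these data known. Genes named are the 10 members, the other 4 ZIP genes, the 3 of the ZnT and metallothionein lists with the smallest p, and markers. Outside that rule, some genes that overlap a member are named (Ankrd52, Elp2, Cog1, Gm20427 and Dnah7c), and the metallothionein genes are named beside Mtf1. Dnah7c, with 0 counts, shares 318 exonic bases with Slc39a10 on the opposite strand. For the 2 ZIP genes with the smallest p, the 3 genes with the nearest profile are also named. Alternatives covered the scaling, filter, test, block, length and each mouse left out. Tables and plots were made in Python 3.11.15 (numpy 2.4.6, pandas 2.3.3, matplotlib 3.10.9).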

Additional observations from a re-analysis of the deposited data

How the results depend on the processing

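Over all genes, 44 were called, against 11 with library size only, 251 without a filter on low counts, 25 without the robust option and 134 with DESeq2's test. With a mouse left out the count ran from 8 to 36: leaving out control replicate 2 or 4 gave 8, and leaving out zinc deficient replicate 2, 4 or 1 gave 13, 17 or 26. The cause was not tested. Of the ZIP genes, 0 were called under these alternatives, apart from 1 (Slc39a10) without a filter on low counts. The other zinc handling genes had 0 calls under all alternatives. With library size only, the log2 fold changes of Slc39a1 (-0.025), Slc39a3 (-0.31), Slc39a7 (-0.063), Slc39a8 (-0.0032), Slc39a11 (-0.32), Slc39a14 (-0.37), Slc39a9 (-0.27), Slc30a6 (-0.071) and Slc30a2 (-0.20) changed sign, and the median of all genes moved to -0.37. Upper quartile scaling turned Slc39a11 to -0.015. With a mouse left out, Slc39a3 ran from -0.025 to 0.098, Slc39a4 from -0.28 to 0.090, Slc39a9 from -0.037 to 0.14, Slc39a11 from -0.092 to 0.067 and Slc39a14 from -0.069 to 0.12. An exact permutation test of each ZIP gene gave 0.0286 for Slc39a1, Slc39a5 and Slc39a8, the smallest p that 4 against 4 mice allow, and 0.0571 for Slc39a10 (two-sided, unadjusted). By level, 2 of the 10 genes kept their rank in CPM, which ignores length, and 5 with the canonical transcript length.

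Replicate numbers are shared by the diets, but same-numbered mice deviated together only weakly (r from 0.0254 to 0.0900). Each r was taken over genes, whose values depend on one another. Whether same-numbered mice shared more than a number was not tested. With the replicate number as a block, 53 genes and 0 ZIP genes were called, and Slc39a1 no longer had an unadjusted p under 0.05. The higher and lower calls over all genes were 16 and 28 without the block and 24 and 29 with it. Control replicates 1, 2 and 4 correlated best with the zinc deficient mouse of their own number, and control replicate 3 with replicate 4. Slc39a6 (32 to 106 counts per mouse), Slc39a7 (67 to 157) and Slc39a5 (64 to 217) had the fewest counts of the 10 genes, so counting error is widest there.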

Other observations

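Genes whose profile over the 8 mice lay nearest to that of Slc39a5 and Slc39a10 were listed, among the 10769 genes tested that had a mean of at least 1 CPM. Profiles were log2 of the TMM-scaled CPM plus a pseudocount of 0.5, each centred on its control mean, and nearness was the root mean square difference over the 8 mice. The diet difference is part of such a profile, so similar fold changes in the listed genes follow from how they were picked. For Slc39a5, the nearest gene was Klk1, a secreted serine protease of the kallikrein family, at a distance of 0.119, whereas the profile of Slc39a5 itself lay 0.487 from a flat line. Klk1 had a log2 fold change of -0.63 (standard error 0.15, adjusted p = 0.0746 by edgeR). Next came 1810014B01Rik (mean of 1.89 CPM) at 0.140 and Tmem209 at 0.151. For Slc39a10, the nearest were S100a14 at 0.184, the kinase gene Pim3 at 0.200 and Abhd5, a co-activator of triglyceride breakdown, at 0.201. Pim3 had a log2 fold change of 0.55 (standard error 0.15, adjusted p = 0.134 by edgeR).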
